A study of Mus musculus with 7 samples.

Results

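The receptors that let neutrophils sense and follow chemical attractants were examined in single-cell RNA sequencing (scRNA-seq) data of murine neutrophils. The group held 10 genes chosen by their known function, of 28719 genes listed in any of the 7 count tables: the chemokine receptors Cxcr2, Cxcr4 and Ccr1, the atypical receptor Ccrl2, the formyl peptide receptors Fpr1 and Fpr2, the complement receptors C5ar1 and C3ar1, and the lipid receptors Ltb4r1 and Ptafr. Of these, 8 were listed in every table. Ly6G-positive CD11b-positive cells had been sorted from untreated male C57BL/6J mice in 2 runs, each giving 1 library of blood, 1 of bone marrow and 1 of spleen, from mice harvested at 6 weeks of age in run 1 and at 8 weeks in run 2. One further library, from male C57BL/6J mice that were 8 weeks old when treated, combined neutrophils that carried hashtag oligonucleotides (antibody-bound barcodes naming the origin of a cell) from healthy blood, from the blood and joints of mice with serum transfer arthritis (150 µl of serum from arthritic K/BxN mice per injection, harvest on day 7), from the peritoneum 3 h after 25 ng of IL-1β, and from lung lavage 3 h after 25 ng of IL-1β. Cells of 3 mice were pooled per tissue in the healthy runs, and each inflamed condition was a single pool within 1 library, so the healthy tissues had 2 replicate libraries each and the inflamed conditions none. The tissues of a healthy run came from the same mice.

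Chemoattractant receptors are mostly seven-pass membrane proteins that couple to inhibitory G proteins and, once a ligand binds, steer the cytoskeleton toward the source and prime the cell for killing. Neutrophils are known to be held in the marrow by signalling through Cxcr4 and drawn into the blood through Cxcr2. Within tissue they are thought to pass from intermediate signals such as chemokines and leukotriene B4 to end-target signals such as formylated peptides and the complement fragment C5a. C5ar2, an atypical C5a receptor, Cxcr1, the sister of Cxcr2, and Gpr35 and Gpr84, which sense metabolites and fatty acids, belong to the wider family.

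Levels were counted as unique molecular identifiers (UMIs, 1 per captured transcript) summed over the neutrophils of a library or condition and scaled to counts per 1000000 UMIs (CPM). A transcript is tagged once at its 3′ end, so these values were not divided by gene length. Healthy cells were taken as neutrophils when S100a8 and S100a9 made up 3% or more of their UMIs, which left between 1135 and 3672 cells per library. In the inflammation library the class that the study had given each cell was used, and 4 of 4856 cells were not granulocytes. All 10 neutrophil markers were detected in every library and condition, and they took 152891 to 447296 CPM. Of the markers of other cells, the monocyte and macrophage list took 1391 and 1020 CPM in bone marrow of runs 1 and 2 (11 of 11 genes), 640.4 and 269 in blood (8 of 11) and 1157 and 356 in spleen (9 of 11), the erythroid list reached 30348 in blood of run 2, and the B cell list reached 903 in spleen of run 2. The part of these cells in the differences between tissues was not tested. The 2 spleen libraries stood apart from each other: Cxcr2 was at 311 CPM in run 1 and at 1162 in run 2, which placed the first near bone marrow and the second near blood. Between 0 and 36 cell barcodes were shared by any pair of the 7 libraries. In sums over many cells, fewer cells of a kind and less RNA per cell cannot be told apart.

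On the GRCm38 assembly (mm10), the GENCODE annotation places Cxcr2 at chr1:74153989-74161246 and Cxcr4 at chr1:128588199-128592293. Ccr1 lies at chr9:123962124-123968692 and Ccrl2 at chr9:111054486-111057519. Fpr1 (chr17:17876471-17883940) and Fpr2 (chr17:17887824-17893952) are neighbours transcribed away from each other. C5ar1 lies at chr7:16246743-16259540, C3ar1 at chr6:122847138-122856161, Ltb4r1 at chr14:55765962-55768494 and Ptafr at chr4:132564067-132582683. Fpr2 overlaps Fpr3 on the same strand, so counts of Fpr2 are uncertain to the extent that reads could be split between them. The other 9 overlap no annotated gene.

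In healthy mice 4 receptors were lower and 2 higher in bone marrow than in blood, in a test with the run as a block. Ptafr, Cxcr2, Ccr1 and Cxcr4 were lower in bone marrow than in blood, by 1.81, 1.64, 1.32 and 1.12 on the log2 scale, and Ltb4r1 and Fpr2 were higher in bone marrow, by 1.59 and 1.07. These 6 of the 8 receptors that could be tested passed an adjusted p of 0.05 (edgeR quasi-likelihood test, Benjamini-Hochberg over 6588 genes), where 30.9% of all genes tested did, 15.2% higher and 15.8% lower in bone marrow. The median log2 fold change was -0.85 over the 8 receptors and 0.00 over all genes.

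**Figure D1:**
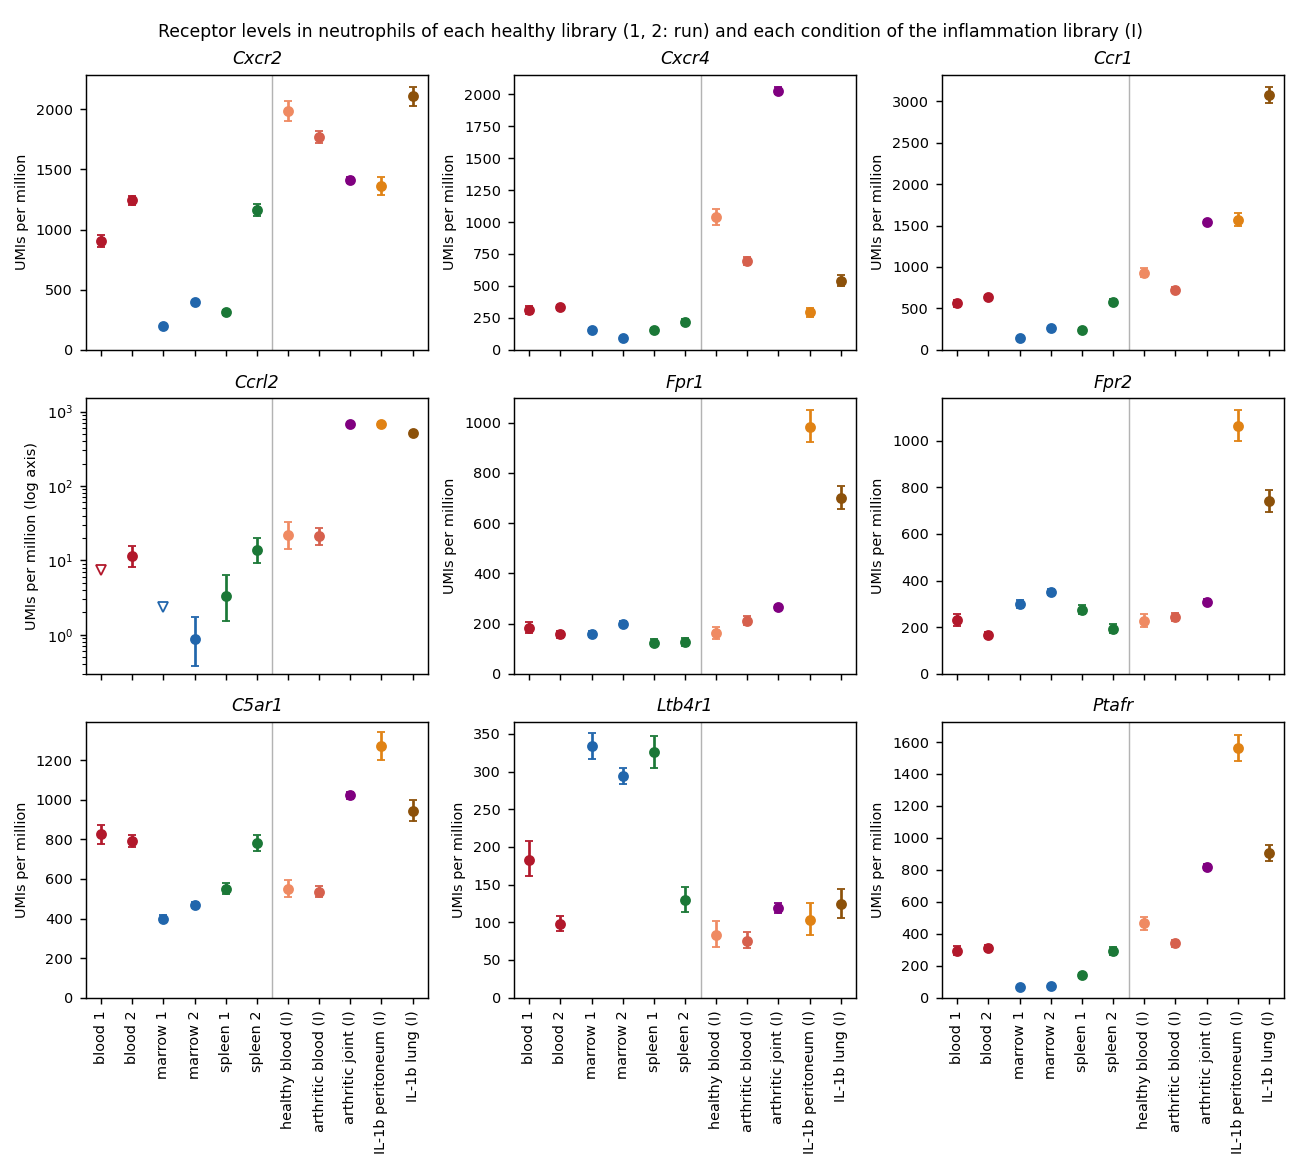
Levels of 9 receptors in CPM summed over neutrophils, for each healthy library (1 and 2 mark the run) and each condition of the inflammation library (I). Bars are 95% Poisson intervals, which cover counting error only; open triangles mark the highest level possible where a table did not list the gene; the axis of Ccrl2 is logarithmic. Ltb4r1 was highest in both bone marrow libraries and spleen of run 1, and Ccrl2 was above 500 only in the joint, the peritoneum and the lung.

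Cxcr2 binds the CXC chemokines that recruit neutrophils, such as Cxcl1 and Cxcl2. It was at 904 and 1242 CPM in blood (runs 1 and 2), 195 and 396 in the marrow, and 311 and 1162 in spleen. Both bone marrow values lay under both blood values, and the spleen spanned the gap. The fall in bone marrow was 1.64 (SE 0.29, adjusted p = 0.00365, edgeR).

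Cxcr4, the receptor of the marrow chemokine Cxcl12, was at 312 and 334 CPM in blood, 155 and 90.3 in the marrow, and 152 and 217 in spleen. The transcript of the marrow retention receptor was thus lowest in the marrow itself in run 2 and close to that of the spleen in run 1. The log2 fold change in bone marrow was -1.12 (SE 0.27, edgeR adjusted p = 0.0131).

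Ccr1, a receptor of CC chemokines such as Ccl3, was at 560.3 and 636 CPM in blood, 141 and 262 in the marrow, and 242 and 583 in spleen. Its groups of blood and bone marrow did not overlap, and the log2 fold change was -1.32 (SE 0.25, edgeR adjusted p = 0.00542). Ccrl2 does not signal through G proteins in the usual way and presents the attractant chemerin to other cells. Its transcript was near the limit of detection in healthy neutrophils: 11.5 CPM in blood of run 2 (95% Poisson interval 8.21 to 15.6), 0.879 in bone marrow of run 2 (0.379 to 1.73), and 3.35 and 13.8 in the spleen. The run 1 tables of blood and bone marrow did not list it, and since those tables list only genes with 11 or more UMIs, this allows at most 7.35 and 2.35 CPM. In bone marrow of run 2 and spleen of run 1 the cells low in S100a8 and S100a9 (under 1% of UMIs) had more, 5.11 and 26.1 CPM from 4 and 3 UMIs. Those cells may hold Ccrl2 transcripts of their own, so whether the neutrophil values there are background was not settled. With unlisted genes set to 0, its log2 fold change in bone marrow was -3.10 (edgeR adjusted p = 0.141).

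Fpr1 and Fpr2 recognise formylated peptides released by bacteria and damaged mitochondria. Fpr1 had a narrow range, with 182 and 157 CPM in blood, 158 and 199 in the marrow, and 123 and 125 in spleen. Bone marrow and blood overlapped, with a log2 fold change of 0.40 (SE 0.24, edgeR adjusted p = 0.239). Fpr2 was at 230.1 and 167 CPM in blood, 299.5 and 351 in the marrow, and 275 and 194 in spleen. It was higher in both bone marrow libraries than in either blood library, by 1.07 on the log2 scale (SE 0.29, edgeR adjusted p = 0.0221).

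C5ar1, the signalling receptor of C5a, was the most abundant of the receptors in both bone marrow libraries and in spleen of run 1. It stood at 825 and 791 CPM in blood, 399 and 468 in the marrow, and 549 and 779 in spleen. Its values in bone marrow lay under both blood values, but the log2 fold change of -0.59 (SE 0.23) had an adjusted p of 0.0868 by edgeR. C3ar1, the receptor of C3a, was not detected beyond 2 UMIs in any healthy library that listed it (2 in blood, 2 in bone marrow and 0 in spleen of run 2), and a count of 0 in the 1956397 UMIs of the last allows up to 3 UMIs. The run 1 tables did not list it.

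Ltb4r1, the high-affinity receptor of leukotriene B4, was with Fpr2 the receptor higher in the marrow. It was at 183 and 98.0 CPM in blood, 333 and 294 in the marrow, and 326 and 129 in spleen, and was higher in bone marrow than in blood by 1.59 on the log2 scale (SE 0.35, edgeR adjusted p = 0.00897). Ptafr, the receptor of platelet-activating factor, was at 292 and 313 CPM in blood, 65.7 and 73.2 in the marrow, and 139 and 291 in spleen. Its log2 fold change in bone marrow was -1.81 (SE 0.23, edgeR adjusted p = 0.00095). Ptafr was also the receptor called between spleen and bone marrow, higher in spleen by 1.36 (SE 0.23, edgeR adjusted p = 0.0104), where 4.86% of all genes were called, 3.96% higher and 0.896% lower.

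Between spleen and blood none of the 8 receptors passed (0.167% of all genes did, 0.137% higher and 0.0304% lower). Unadjusted p-values by edgeR were under 0.05 for 3 of them (Cxcr2, Cxcr4 and Ltb4r1) and for 880 of all 6588 genes. DESeq2 called none of the 8 either, and 31 of all genes. Without the run block a single receptor, Ptafr, stayed called between bone marrow and blood (edgeR adjusted p = 0.0433), where 259 of all 6588 genes were. Leaving out blood of run 1 ended the calls of Cxcr2 (adjusted p = 0.0769), Cxcr4 (0.0601), Ccr1 (0.106), Fpr2 (0.154) and Ltb4r1 (0.0991) by edgeR. Those of Cxcr4, Fpr2 and Ltb4r1 also ended without blood of run 2 (0.142, 0.187 and 0.0943) or bone marrow of run 2 (0.232, 0.389 and 0.0959). The log2 fold change of Ltb4r1 without bone marrow of run 2 was 0.92 and that of Fpr2 0.55. Fpr2 was also lost, at 0.0528, when unlisted genes were set to 0. The call of Ptafr between spleen and bone marrow ended without bone marrow of run 2 (0.0613) or spleen of run 2 (0.0723). Leaving out a library, which leaves 1 library of its tissue, also moved other folds. The log2 fold change of C5ar1 in bone marrow against blood then ranged from -0.72 to -0.46. Without spleen of run 1, log2 fold changes in spleen against bone marrow were 1.26 for Cxcr2, 0.89 for Ccr1 and -0.98 for Fpr1. Those of Fpr2 and Ltb4r1 were -1.13 and -1.45 there, and -1.14 and -1.35 without bone marrow of run 1. Ltb4r1 was higher in spleen than in blood by 1.38 without spleen of run 2. With all libraries, DESeq2 also called Cxcr2 between spleen and bone marrow (adjusted p = 0.0423), where it called 308 of all 6588 genes.

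**Figure D2:**
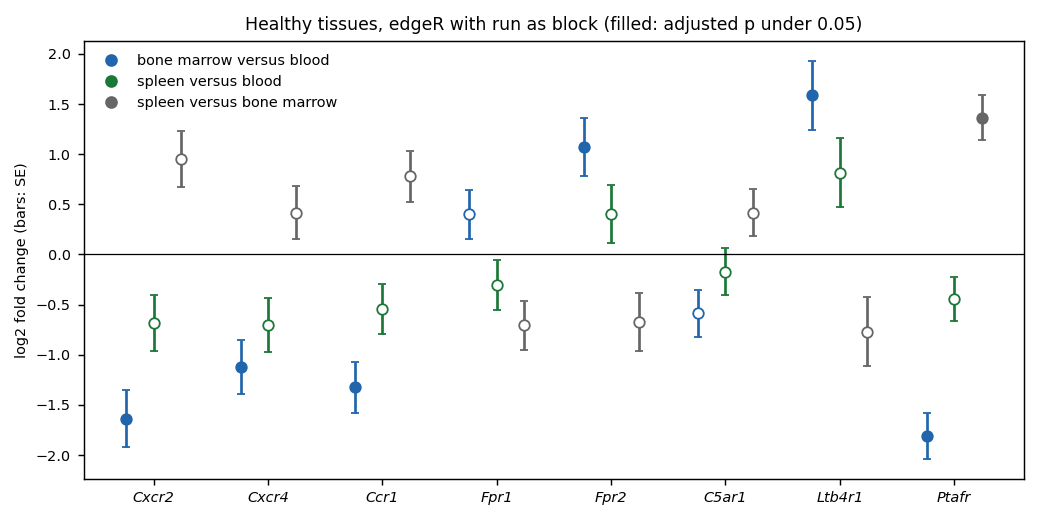
Log2 fold changes of the 8 receptors listed in all healthy tables, with standard errors, from the edgeR fit with the run as a block (2 libraries per tissue). Filled points have an adjusted p under 0.05: 4 receptors lay lower and 2 higher in bone marrow than in blood, and none passed between spleen and blood.

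Since a ratio between receptors in the same cells does not depend on the total to which counts are scaled, ratios were compared across tissues as well. Ltb4r1 to Ptafr was the ratio that differed most: 0.627 and 0.313 in blood, 5.08 and 4.02 in the marrow, and 2.34 and 0.445 in spleen. Within runs it was 8.09-fold and 12.8-fold higher in bone marrow than in blood. Neutrophils of the marrow thus carried more transcripts of the leukotriene receptor than of the receptor for platelet-activating factor, and those of the blood the reverse. Fpr1 to Fpr2 was 0.792 and 0.941 in blood against 0.527 and 0.567 in the marrow and 0.447 and 0.644 in spleen, which was 1.50-fold and 1.66-fold lower in bone marrow than in blood.

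Cxcr2 to Cxcr4 gave no stable order. The ratio was 2.90 and 3.72 in blood, 1.26 and 4.38 in the marrow, and 2.05 and 5.35 in spleen, so bone marrow was 2.31-fold lower than blood in run 1 and 1.18-fold higher in run 2. Ccr1 to Cxcr2 stayed within 0.502 to 0.777 over the 6 libraries. An exact permutation test of the tissue labels (90 arrangements, 2 libraries per tissue, 4 ratios tested) gave p = 0.133 for Ltb4r1 to Ptafr, 0.2 for Fpr1 to Fpr2, 0.6 for Ccr1 to Cxcr2 and 0.867 for Cxcr2 to Cxcr4. The smallest p this design allows is 0.0667, so it cannot pass 0.05, and the arrangements also cross runs and take no account of the mice that tissues of a run shared. Ratios with Ccrl2 or C3ar1 were not tested, since run 1 did not list these genes in every tissue.

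The make-up of the receptor transcripts as a whole differed accordingly. Summed over the receptors that each table listed (all 10 in run 2, but without Ccrl2 and C3ar1 in blood and bone marrow of run 1 and without C3ar1 in spleen of run 1), neutrophils had 3488 and 3750.4 CPM in blood, 1747 and 2135 in the marrow, and 2122 and 3494 in spleen. Cxcr2 made up 25.9% and 33.1% of these in blood and 11.2% and 18.5% in the marrow, and Ltb4r1 made up 5.25% and 2.61% in blood and 19.1% and 13.8% in bone marrow. C5ar1 held 21.1% to 25.9% in the 6 libraries of the healthy runs, but 10.1% in healthy blood of the inflammation library. The study's methods name a later droplet chemistry for that library than for the healthy runs, and the labels list several versions without assigning them, so chemistry, mice and library cannot be told apart where values are set across them. In blood of the healthy runs, Cxcr2 and C5ar1 were the top receptors and Ccr1 followed them. The neighbours Cxcr4 and Ptafr could not be separated beyond their Poisson intervals in either run. In bone marrow of run 1, Ltb4r1 and Fpr2 could not be separated, and neither could Fpr1, Cxcr4 and Ccr1.

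Neutrophils lose transcripts of granule proteins as they mature, so the cells of each healthy library were ranked by the share of UMIs from 6 granule genes (Camp, Ngp, Ltf, Lcn2, Chil3 and Wfdc21). The cells were split into 3 equal parts, and receptor levels in the part with the lowest share were set against those in the part with the highest, as CPM outside these genes. Cxcr2, Ccr1, Ptafr, C5ar1 and Cxcr4 were higher in the granule-low cells in 6 of 6 libraries, and Ltb4r1 was lower in 6 of 6 (exact two-sided sign-flip test over libraries, p = 0.03125 each, the smallest possible with 6 libraries, unadjusted over 9 receptors). The test treats all 6 as independent although the 3 tissues of each run shared their mice, so these p-values are too small. Of 6582 genes, 16.8% were higher and 6.2% lower in all 6 libraries. The mean differences were 1.61 ± 1.21 for Cxcr2, 1.25 ± 0.96 for Ccr1, 1.15 ± 0.96 for Ptafr, 0.86 ± 0.60 for C5ar1, 0.65 ± 0.28 for Cxcr4 and -1.37 ± 0.45 for Ltb4r1 (log2, SD, n = 6), where the median over all genes was 0.17. Measured against the median gene of the same library, Cxcr4 was higher in 6 of 6 libraries, Cxcr2 and Ptafr in 5, Ccr1 and C5ar1 in 4, and Ltb4r1 was lower in 6. The exceptions were blood of run 2 for Cxcr2, Ccr1 and C5ar1 and spleen of run 2 for Ccr1, C5ar1 and Ptafr.

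Size differed more between libraries than direction. For Cxcr2 the log2 difference was 2.70 and 2.12 in the marrow and 3.10 in spleen of run 1, but 1.07 and 0.16 in blood and 0.50 in spleen of run 2. In blood of run 2, Cxcr2 thus moved no more than the median gene there (0.17), with 1276 CPM in granule-low cells and 1140.4 in granule-high cells. In bone marrow of run 1 the same receptor went from 82.4 CPM in granule-high cells over 230.0 in the middle group to 534 in granule-low cells. The granule genes took 16.7% of UMIs in the highest part there and 1.00% in blood of run 2, so the span of the ranking differed as well. Granule-high cells also had more UMIs, with a median of 4810 against 1730 per cell in bone marrow of run 1; the part of cell depth was not tested.

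Cxcr4 in bone marrow was highest in the middle group in both runs, at 249 and 119.8 CPM, against 186 and 108 in granule-low and 127 and 83.0 in granule-high cells. Ltb4r1 went from 525 to 163 CPM between granule-high and granule-low cells in bone marrow of run 1 and from 116 to 72.1 in blood of run 2. Fpr1 was higher in granule-low cells of bone marrow (log2 differences of 2.31 and 1.28) and lower in those of blood (-0.51 and -0.52), and the spleen libraries differed in sign (0.25 and -0.61). Fpr2 hardly differed in bone marrow (0.12 and 0.02) and was lower in granule-low cells of blood (-1.11 and -0.55) and spleen (-1.17 and -0.94). Over the 6 libraries the exact sign-flip test gave p = 0.531 for Fpr1 and 0.125 for Fpr2. Ccrl2 had too few UMIs for this comparison, with 14 in granule-low against 14 in granule-high cells of blood of run 2, 3 against 3 in bone marrow of run 2, and 5 against 1 and 10 against 7 in the spleen libraries.

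**Figure D3:**
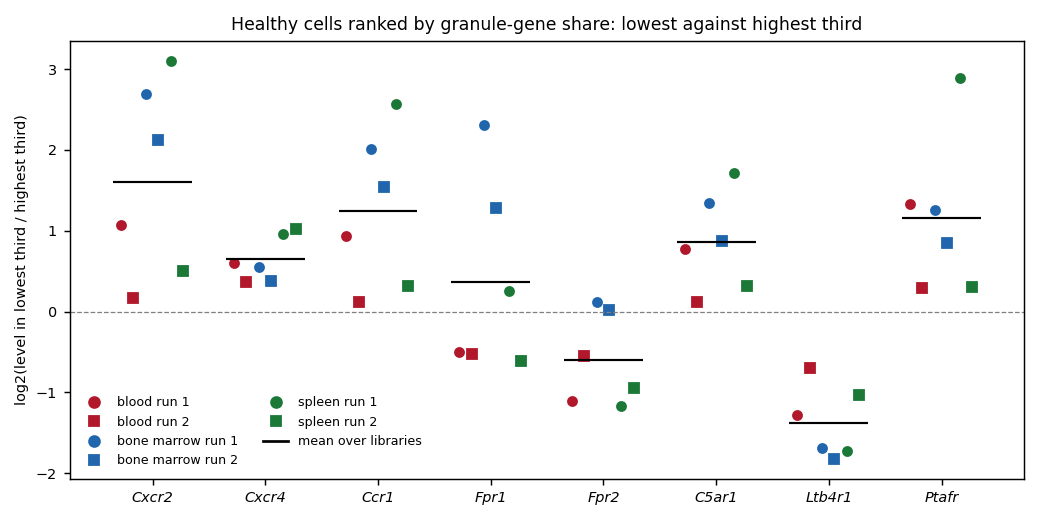
Log2 ratio of each receptor's level in the lowest against the highest of 3 equal parts of cells by granule-gene share, 1 point per healthy library (circles run 1, squares run 2), with the mean over libraries as a line. Cxcr2, Cxcr4, Ccr1, C5ar1 and Ptafr lie above 0 in 6 of 6 libraries and Ltb4r1 below 0 in 6 of 6, while Fpr1 lies above 0 in bone marrow and below it in blood.

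To show what share of cells carried a receptor, healthy cells were thinned to 500 UMIs, which left out 26 cells of blood of run 1 and none of the other libraries. Cxcr2 was then found in 39.5% and 47.7% of neutrophils in blood (56.4% and 66.4% unthinned), 12.4% and 23.3% in the marrow (43.6% and 59.7%) and 23.0% and 48.2% in spleen (48.1% and 65.5%). Cxcr4 was found in 15.3% and 16.2% in blood (25.0% and 25.2% unthinned), 10.2% and 5.58% in the marrow (39.6% and 20.8%), and 7.58% and 11.0% in spleen (28.2% and 18.1%). In cells low in S100 genes, thinned shares were 0 to 5.42% for Cxcr2 and 0 to 3.94% for Cxcr4. Free RNA and transcripts of their own cannot be told apart in such cells. Those cells had median depths of 1554 to 5351 UMIs before thinning, and neutrophils 775 to 2698.5. The levels of Cxcr2 in those cells were 2.79% to 4.84% of the neutrophil levels. For Ltb4r1 they reached 56.6% in blood of run 1, and for Cxcr4 43.9% in bone marrow of run 2.

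The inflammation library asked how the receptors differ once neutrophils have entered tissue. It held 509 cells of healthy blood, 814 of arthritic blood, 2857 of arthritic joint, 292 of peritoneum and 380 of lung, with 942688 to 10293966 UMIs summed per condition. There is no replicate, so values carry intervals for counting error only and no test between conditions was made. Many genes were lower on the CPM scale in inflamed tissue than in healthy blood: the median log2 fold over the genes with 20 or more UMIs was -0.40 in arthritic blood, -0.47 in the joint, -1.06 in the peritoneum and -0.97 in the lung. Scaling by TMM factors raised these medians by 0.46, 0.56, 0.91 and 0.90. For this reason folds are given as CPM and after TMM, and ratios between receptors, which scaling leaves as they are, come first.

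Cxcr2 to Cxcr4 separated the arthritic joint from every other condition. The ratio was 1.92 in healthy blood (95% Clopper-Pearson interval 1.78 to 2.06), 2.54 in arthritic blood (2.40 to 2.68), 0.695 in the joint (0.681 to 0.710), 4.64 in the peritoneum (4.07 to 5.31) and 3.89 in the lung (3.58 to 4.23). In the joint Cxcr4 transcripts outnumbered those of Cxcr2, 20871 UMIs against 14515. The ratio in the joint was 3.65-fold lower than in arthritic blood (interval 3.44 to 3.86) and 2.76-fold lower than in healthy blood, while the peritoneum was 2.42-fold and the lung 2.03-fold above healthy blood. The 2 tissues exposed to IL-1β and the joint thus lay on opposite sides of the blood. The ratio in healthy blood of this library was itself under the 2.90 and 3.72 of the healthy runs, which were made as separate libraries and, by the study's methods, with an earlier chemistry.

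**Figure D4:**
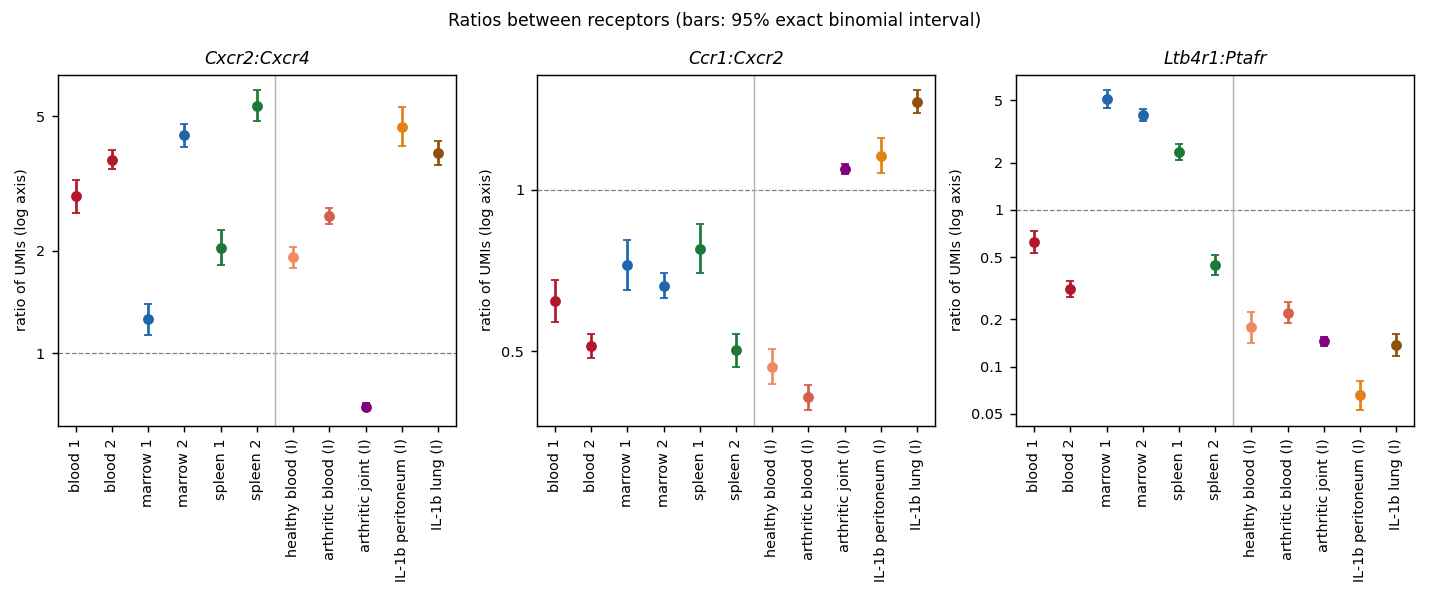
Ratios of UMIs between receptor pairs in each healthy library and each condition of the inflammation library (I) on logarithmic axes, with 95% exact binomial intervals that cover counting error only; the dashed line marks equal counts. Cxcr2 to Cxcr4 is under 1 in the joint alone, Ccr1 to Cxcr2 is above 1 in the joint, peritoneum and lung, and Ltb4r1 to Ptafr is above 1 in both bone marrow libraries and spleen of run 1.

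The level of Cxcr4 was 1037 CPM in healthy blood, 698 in arthritic blood, 2028 in the joint, 293 in the peritoneum and 542 in the lung. It was 2.90-fold higher in the joint than in arthritic blood (3.10-fold after TMM) and 1.95-fold higher than in healthy blood (2.87-fold after TMM). The peritoneum was 3.54-fold lower than healthy blood (1.88-fold after TMM) and the lung 1.91-fold lower (1.02-fold after TMM). Cells were thinned to 1000 UMIs, which left out 155 cells of healthy blood, 140 of arthritic blood, 123 of the joint, 61 of the peritoneum and 94 of the lung. A Cxcr4 UMI was then found in 74.8% of cells in the joint (95% exact interval 73.1 to 76.4), 59.9% in healthy blood, 44.4% in arthritic blood, 28.3% in the lung and 21.2% in the peritoneum (16.1 to 27.1). Unthinned, these shares were 93.4%, 69.5%, 73.2%, 51.8% and 40.4%, at median depths of 2527 UMIs in healthy blood and 3475.5 to 3681 elsewhere. This library held no group of other cells to set beside these shares, and free RNA was not gauged.

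Cxcr2 spanned a narrower range. It was at 1988 CPM in healthy blood, 1769.6 in arthritic blood, 1410.05 in the joint, 1359 in the peritoneum and 2109 in the lung. Its direction against healthy blood turned with the scaling in 3 of the conditions: 1.12-fold lower in arthritic blood, 1.41-fold lower in the joint and 1.46-fold lower in the peritoneum on the CPM scale, but 1.23-fold, 1.04-fold and 1.29-fold higher after TMM. In the lung it was 1.06-fold higher as CPM and 1.98-fold higher after TMM.

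Ccr1 transcripts outnumbered those of Cxcr2 in all 3 inflamed tissues. Ccr1 to Cxcr2 was 0.468 in healthy blood and 0.410 in arthritic blood, but 1.09 in the joint, 1.16 in the peritoneum and 1.46 in the lung, that is 2.33-fold, 2.47-fold and 3.11-fold above healthy blood. The levels were 931 CPM in healthy blood, 726 in arthritic blood, 1539.6 in the joint, 1572 in the peritoneum and 3074 in the lung. Lung neutrophils had 3.30-fold more Ccr1 than healthy blood (interval 3.08 to 3.54; 6.17-fold after TMM), and 31.9% of the receptor UMIs there were Ccr1, the largest share any receptor other than Cxcr2 took in a condition or library.

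Of the 9 receptors compared, Ccrl2 had the largest folds in inflamed tissue. It was at 22.2 CPM in healthy blood (25 UMIs, interval 14.4 to 32.8), 21.2 in arthritic blood (57 UMIs), 681 in the joint, 669 in the peritoneum and 515 in the lung. Against healthy blood this was 30.6-fold in the joint (interval 20.7 to 47.4), 30.1-fold in the peritoneum (20.2 to 46.9) and 23.2-fold in the lung (15.6 to 36.0). After TMM these folds were 45.0, 56.6 and 43.3, which put the peritoneum above the joint. The joint was 32.2-fold above the blood of arthritic mice (24.8 to 42.5; 34.4-fold after TMM). The fold in the joint lay above those of 99.8% of the genes tested and that in the lung above 99.1%. In arthritic blood the fold was 0.952 (interval 0.585 to 1.59; 1.31 after TMM). Among thinned cells 25.9% of the joint, 32.0% of the peritoneum and 29.7% of the lung carried a Ccrl2 UMI, against 1.98% of healthy blood (interval 0.799 to 4.03) and 1.63% of arthritic blood (unthinned 40.4%, 49.7%, 40.0%, 4.91% and 6.51%). The monocyte and macrophage list was at 283 CPM in healthy blood, 336 in arthritic blood, 301 in the joint, 389 in the peritoneum and 296 in the lung; their part was not tested.

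The formyl peptide receptors separated the tissues exposed to IL-1β from the joint. Fpr1 was at 162 CPM in healthy blood, 211 in arthritic blood, 266 in the joint, 984 in the peritoneum and 699 in the lung. Fpr2 ran in parallel at 228, 243, 309, 1065 and 740.3. Fpr1 was 6.08-fold above healthy blood in the peritoneum (interval 5.19 to 7.17) and 4.32-fold in the lung, and Fpr2 4.68-fold and 3.25-fold, but in the joint the folds were 1.64 and 1.36. After TMM the joint stood at 2.41-fold for Fpr1 and 2.00-fold for Fpr2, still below the peritoneum at 11.4-fold and 8.80-fold. The ratio of Fpr1 to Fpr2 stayed between 0.711 and 0.945 over the 5 conditions, a far narrower range than that of either level.

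C5ar1 was at 550.3 CPM in healthy blood, 535 in arthritic blood, 1022 in the joint, 1269.8 in the peritoneum and 943 in the lung. Its folds over healthy blood were 1.86 in the joint, 2.31 in the peritoneum and 1.71 in the lung, and 2.73, 4.34 and 3.20 after TMM. In arthritic blood it was 1.03-fold lower as CPM and 1.34-fold higher after TMM. C3ar1 stayed near 0 throughout, with 5 UMIs in healthy blood, 1 in arthritic blood, 7 in the joint, and 0 in the peritoneum and lung, where a count of 0 allows up to 3 UMIs.

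Ptafr was at 465 CPM in healthy blood, 340.5 in arthritic blood, 818 in the joint, 1563 in the peritoneum and 904 in the lung. The peritoneum was 3.36-fold above healthy blood (interval 3.04 to 3.72; 6.32-fold after TMM), and there Ptafr and Ccr1 were the leading receptors and could not be separated beyond counting error. Ltb4r1 was at 82.7 CPM in healthy blood, 75.4 in arthritic blood, 118 in the joint, 103 in the peritoneum and 124 in the lung. Its folds over healthy blood were 1.43 in the joint, 1.24 in the peritoneum (interval 0.927 to 1.67) and 1.50 in the lung, and 2.10, 2.34 and 2.80 after TMM. Ltb4r1 to Ptafr, above 4 in healthy bone marrow, was 0.178 in healthy blood of this library and 0.0659 in the peritoneum, 2.70-fold lower (interval 2.00 to 3.65).

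In counts, of the 9 receptors with 20 or more UMIs, 2-fold or more as CPM over healthy blood was reached by 1 in the joint (10.7% of all genes higher, 25.9% lower), 5 in the peritoneum (10.2%) and 4 in the lung (10.9%, with 49.3% lower). Lower by 2-fold or more was Cxcr4 in the peritoneum, where 51.8% of all genes were. After TMM 7 receptors were higher in each of the 3 tissues, against 18.4%, 20.7% and 21.6% of all genes, and 0 were lower, against 9.47%, 23.8% and 23%. Against arthritic blood, the joint had 4 of 9 receptors higher (Ccrl2, Cxcr4, Ptafr and Ccr1; 15.5% of all genes) and none lower by 2-fold (9.34%). After TMM 5 were higher (17.4%) and 0 lower (7.84%). Arthritic against healthy blood had 0 of 9 in either direction (1.21% of all genes higher, 11.3% lower, and after TMM 4.2% and 3.66%), and lung against peritoneum 0 of 9 (9.72% and 8.6%, after TMM 9.61% and 8.77%). The median log2 fold over the 9 receptors was 0.73 in the joint, 1.21 in the peritoneum and 0.96 in the lung.

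**Figure D5:**
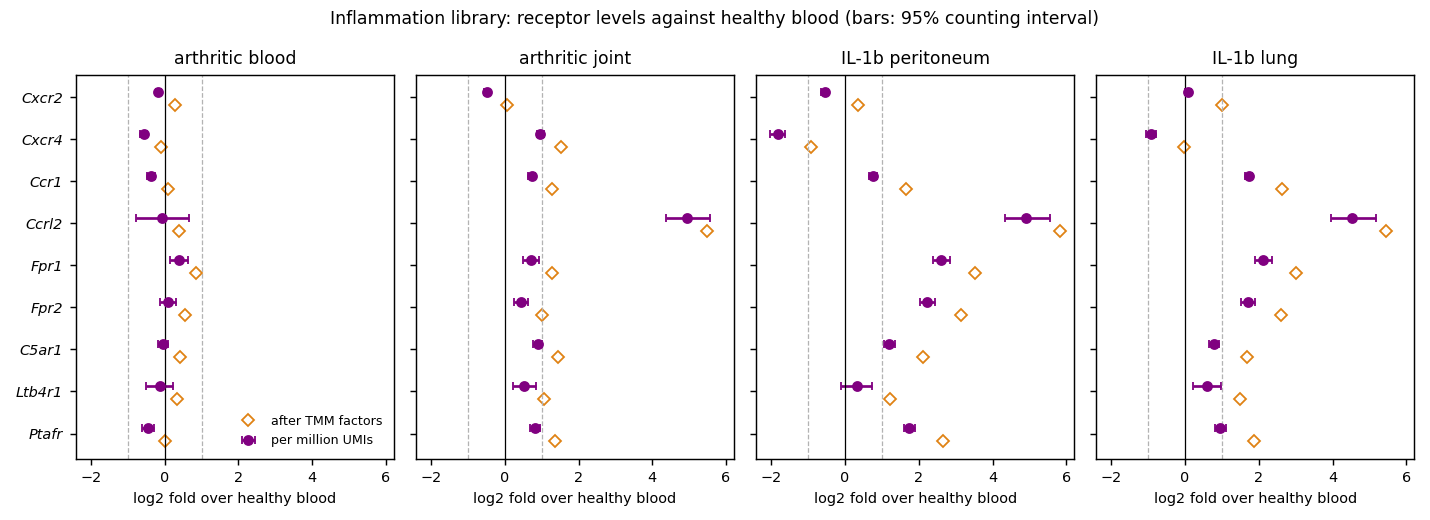
Log2 folds of 9 receptors over healthy blood of the same library, on the CPM scale with 95% counting intervals (filled circles) and after TMM scaling (open diamonds); dashed lines mark 2-fold. Ccrl2 is more than 20-fold higher in the 3 tissues and Fpr1 and Fpr2 have their larger folds in the peritoneum and lung, while TMM scaling moves the points of the peritoneum and lung to the right by about 0.9.

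The lung and peritoneum, which both received IL-1β for 3 h, differed in the balance of receptors. Ccr1, Cxcr4 and Cxcr2 were higher in the lung by 1.96-fold, 1.85-fold and 1.55-fold. Ptafr, Fpr2, Fpr1, C5ar1 and Ccrl2 were higher in the peritoneum by 1.73-fold, 1.44-fold, 1.41-fold, 1.35-fold and 1.30-fold. All 8 intervals lay to 1 side of 1, and that of Ltb4r1 (1.21-fold higher in the lung, 0.933 to 1.57) did not.

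The upstream regions of 4 receptors are shown for reference: Ccrl2, Fpr1 and Fpr2 for their folds in the peritoneum and lung, and Cxcr4 for its ratio to Cxcr2 in the joint. They are the 250 bases before the annotated start, from RefSeq on GRCm38.p6, 5′ to 3′ on the strand of the gene. All 10 receptors matched an entry. For Ccrl2 (chr9:111057519-111057768, minus strand, the most upstream of 3 listed starts) capitals mark a match to the decamer known as the NF-κB motif, starting 56 bases before the start site. It is held by 5.93% of 32851 such regions on either strand, by neither region of the other Ccrl2 starts and by no other receptor. For Cxcr4 (chr1:128592300-128592549, minus strand), Fpr1 (chr17:17883940-17884189, minus strand) and Fpr2 (chr17:17887574-17887823, plus strand), capitals mark matches on either strand to TTNNGNAA, a C/EBP-type motif that 36.8% of the regions hold. Ccr1 and C5ar1 hold 1 match each and the other receptors none. Such matches describe letters, not bound sites.
Ccrl2: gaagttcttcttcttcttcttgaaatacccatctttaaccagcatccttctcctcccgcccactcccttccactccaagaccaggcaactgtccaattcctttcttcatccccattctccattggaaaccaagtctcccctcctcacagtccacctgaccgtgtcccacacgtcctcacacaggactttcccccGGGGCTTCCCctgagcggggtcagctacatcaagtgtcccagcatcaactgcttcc
Cxcr4: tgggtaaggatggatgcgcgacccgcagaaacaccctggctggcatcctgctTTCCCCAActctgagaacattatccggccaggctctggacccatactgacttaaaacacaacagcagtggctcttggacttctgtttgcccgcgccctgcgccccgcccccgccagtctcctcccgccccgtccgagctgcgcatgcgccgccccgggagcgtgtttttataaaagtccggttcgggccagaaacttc
Fpr1: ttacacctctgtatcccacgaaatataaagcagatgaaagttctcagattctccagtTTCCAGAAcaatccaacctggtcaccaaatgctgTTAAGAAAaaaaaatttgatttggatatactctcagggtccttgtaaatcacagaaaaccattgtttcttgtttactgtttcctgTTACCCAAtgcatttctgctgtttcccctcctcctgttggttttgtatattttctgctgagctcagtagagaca
Fpr2: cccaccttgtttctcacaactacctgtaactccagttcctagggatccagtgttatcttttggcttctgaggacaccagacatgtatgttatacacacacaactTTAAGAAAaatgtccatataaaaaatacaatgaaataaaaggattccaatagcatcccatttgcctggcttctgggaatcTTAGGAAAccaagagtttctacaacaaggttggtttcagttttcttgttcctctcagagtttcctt

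The machinery downstream of the receptors differed in a few genes between healthy tissues. Of 39 genes for G proteins, arrestins, receptor kinases and effectors, 30 could be tested between healthy bone marrow and blood, and 6 were lower in bone marrow and 0 higher (median log2 fold change -0.31, all genes 0.00), where 15.8% of all genes were lower and 15.2% higher. By edgeR and by DESeq2, 0 of the 30 were called between spleen and blood or between spleen and bone marrow. Of all genes, edgeR called 0.167% and 4.86% there. At an unadjusted p under 0.05 by edgeR were 5 and 3 of the 30, and 880 and 1420 of all 6588 genes. The 6 genes lower in bone marrow were Grk5 (-1.93) and Adrbk1 (-0.87), which phosphorylate active receptors, Pik3r5 (-1.55), a regulatory subunit of PI3Kγ, Prex1 (-1.41), an exchange factor for Rac, the Src kinase Fgr (-1.10) and Gng2 (-0.86), a G protein subunit. The balance of this list in the inflammation library moved with the scaling in the joint and the peritoneum, while in the lung more genes were lower than higher on both scales. In the joint 10 of 32 genes were lower than in healthy blood by 2-fold or more and 1 was higher (2 and 2 after TMM), in the peritoneum 13 and 2 of 30 (8 and 9 after TMM), and in the lung 17 and 1 of 30 (9 and 4 after TMM). Of all genes, 25.9%, 51.8% and 49.3% were lower by as much in these tissues and 10.7%, 10.2% and 10.9% higher, so the list's counts lower on the CPM scale lay near those of genes at large. After TMM 9.47%, 23.8% and 23% of all genes were lower and 18.4%, 20.7% and 21.6% higher. The kinase Mapkapk2 had the largest upward fold of the list in the joint, peritoneum and lung alike. It was at 96.0 CPM in healthy blood, 389 in the joint, 1411 in the peritoneum and 682 in the lung. Grk6, a receptor kinase, was at 129.8 in healthy blood, 29.4 in the joint and 21.2 in the peritoneum.

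Of 27 other receptors of the family, 4 were listed and expressed enough to test in the healthy tissues. Cxcr1 was lower in bone marrow than in blood by 3.14 on the log2 scale (SE 0.51, edgeR adjusted p = 0.00277) and C5ar2 by 1.89 (SE 0.27, adjusted p = 0.00156), while S1pr4, a receptor of sphingosine 1-phosphate, was higher by 1.61 (SE 0.38, adjusted p = 0.0119). Cxcr1 and C5ar2 were also higher in spleen than in bone marrow, by 2.23 and 1.19 (edgeR adjusted p = 0.0486 and 0.037). In the inflammation library Gpr84 went from 6.22 CPM in healthy blood (7 UMIs) to 355 in the peritoneum and 198 in the lung, and Gpr35 from 22.2 to 256 in the joint, 127 in the peritoneum and 166 in the lung. S1pr4 was at 33.8 CPM in healthy blood (38 UMIs), 3.98 in the joint, 6.36 in the peritoneum (6 UMIs) and 3.03 in the lung (4 UMIs), which was 5.77-fold, 2.82-fold and 5.97-fold lower than healthy blood after TMM. C5ar2 was at 316 CPM in healthy blood, 134 in the joint, 110.3 in the peritoneum and 125 in the lung, 2.36-fold, 2.86-fold and 2.53-fold lower as CPM but 1.60-fold, 1.52-fold and 1.35-fold lower after TMM. Cxcr1 had 19 UMIs in healthy blood, 3 in the peritoneum and 16 in the lung. As CPM, 3 of 10 genes of the list were 2-fold or more higher and 3 lower in the joint (7 and 1 after TMM). In the peritoneum 3 and 3 of 6 were (3 and 2 after TMM), and in the lung 3 and 2 of 6 (3 and 1 after TMM). Of all genes, 10.2% to 10.9% were higher and 25.9% to 51.8% lower in these tissues as CPM. After TMM 18.4% to 21.6% were higher and 9.47% to 23.8% lower. The limit of 20 UMIs was set over both conditions, and the joint held 10293966 UMIs against 1124877 in healthy blood. S1pr1 (62 UMIs in the joint, 1 in healthy blood) and Cx3cr1 (29 and 1), counted as higher, passed it through the joint alone. The joint's counts are therefore not comparable with those of the peritoneum and lung.

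Neutrophils also carried transcripts of ligands and of enzymes that make or destroy them. Cxcl2, a ligand of Cxcr2, went from 209.8 CPM in healthy blood to 7416 in the joint, 6763 in the peritoneum and 14116 in the lung. Ccl3, a ligand of Ccr1, went from 55.1 to 1246, 1593 and 2351, and Ccl4 from 140.5 to 3204, 3772 and 4718. Cxcl3 differed between the tissues exposed to IL-1β, at 1459.7 in the peritoneum and 9256 in the lung. In all, 4 of 17 genes were higher by 2-fold in the joint and 4 lower (6 and 1 after TMM), 5 and 7 of 15 in the peritoneum (6 and 1 after TMM), and 7 and 5 of 16 in the lung (7 and 1 after TMM). Of all genes, 10.7% were higher and 25.9% lower in the joint, 10.2% and 51.8% in the peritoneum, and 10.9% and 49.3% in the lung. After TMM these shares were 18.4% and 9.47%, 20.7% and 23.8%, and 21.6% and 23%. In healthy tissue 4 of 11 were called higher and 5 lower in bone marrow than in blood (15.2% and 15.8% of all genes). Lta4h, which makes leukotriene B4, was higher in bone marrow by 2.72 (SE 0.45, edgeR adjusted p = 0.003), in the same tissue as its receptor Ltb4r1. Pla2g7, which degrades platelet-activating factor, was lower by 3.22 (SE 0.29, adjusted p = 0.000284), as was its receptor Ptafr.

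The genes whose levels went most with those of Cxcr2 and Cxcr4 were sought over the 11 libraries and conditions, on log2(CPM + 10) centred within each run and within the inflammation library, among 2000 genes with a mean of at least 50 CPM. For Cxcr2 they were Tbc1d14 (Pearson's r = 0.99), C130050O18Rik (0.97), Picalm (0.97), Txnip (0.97) and 1810013L24Rik (0.97). For Cxcr4 they were Fuca2 (0.98), Scarb2 (0.96), Fem1c (0.96), Mbnl2 (0.96) and Bud31 (0.94). These are descriptions over points that share mice, libraries and totals.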

How the data were processed

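The authors made droplet 3′ scRNA-seq libraries from sorted neutrophils, and the submitters' processing notes name Cell Ranger and mm10. The deposited files hold raw UMI counts per gene and cell, in 7 tables, and a table of the condition and cell class of each cell of the inflammation library, which the authors had demultiplexed and cleared of doublets. Cell cycle scores that the authors deposited per cell were not used. All columns were matched to a sample. The run 1 tables list only genes with 11 or more UMIs. The receptors and gene lists were chosen with earlier results of these data known.

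Whole libraries held 1219 to 4856 cells and 1968514 to 16390439 UMIs. Healthy cells with 3% or more of UMIs from S100a8 and S100a9 were kept, and cells of the inflammation library whose class was granulocyte. UMIs were summed per library or condition. Healthy sums were tested with edgeR 4.0.16 (quasi-likelihood, TMM, run as block, 2 libraries per tissue), checked on simulated counts, with DESeq2 1.42.0 as an alternative, and adjusted over 6588 genes by Benjamini-Hochberg. A run's tissues came from the same mice, per the study's methods. Deviations from tissue means correlated between tissues of a run (r = 0.66 to 0.69). With 2 libraries per tissue these deviations mirror each other between the runs, so r cannot separate shared mice from other differences between runs. Runs differ in age and sequencing, and p-values measure only the spread of 2 pools. Folds between inflamed conditions used genes with 20 or more UMIs over both conditions and carry exact 95% intervals, for counting error only. All 10 receptors were named, at most 6 genes per list by largest called change or fold, and 5 genes most like Cxcr2 and Cxcr4. Exact permutation and sign-flip tests used scipy 1.17.1. Alternatives were other S100 limits (1% and 10%), a filter on mitochondrial share and gene number, other-lineage cells left out, DESeq2 scaling, no filter on counts, no block, thinning, 100 UMIs, and each library left out; setting unlisted genes to 0 and a narrower lineage filter were chosen after seeing the data.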

Additional observations from a re-analysis of the deposited data

Results flagged for a closer look

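The dependence of Fpr1 on granule-gene share had opposite signs in blood and bone marrow. For Fpr1, the log2 difference between granule-low and granule-high cells was lower in blood than in bone marrow by a mean of 2.31 (-2.31), being below 0 in both blood libraries and above 0 in both bone marrow libraries, while the spleen libraries were at 0.25 and -0.61. For Fpr2 the same difference between blood and bone marrow was -0.90, and between bone marrow and spleen 1.12, with both bone marrow libraries just above 0 (0.12 and 0.02) and those of blood and spleen below it. With 2 libraries per tissue these differences between tissues were not tested. Granule-gene shares also spanned other ranges in these tissues, up to 16.7% in the highest of 3 parts of bone marrow of run 1 and 1.00% in that of blood of run 2, and their part was not tested.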

How the results depend on the processing

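Without the replicate block by run, the pairing of tissues was lost and 259, 0 and 0 genes were called between bone marrow and blood, spleen and blood, and spleen and bone marrow, against 2037, 11 and 320 with it. DESeq2 called 1324 between bone marrow and blood and 31 between spleen and blood. Between spleen and blood, S100 limits of 1% and 10% gave 64 and 31 genes, the mitochondrial and gene-number filter 2, the narrower lineage filter 2, and unlisted genes set to 0 gave 4. Leaving out each library gave 498 to 2664, 0 to 231 and 51 to 1226 genes, and put the log2 fold change of Fpr2 between spleen and blood at -0.0824 (without spleen of run 1) to 0.79 (without spleen of run 2).

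In the granule comparison, Ccr1 was at 1.12 (exact p = 0.0625) with an S100 limit of 1%, and Fpr2 at -0.66 (exact p = 0.03125) with the mitochondrial filter. With 5 libraries the smallest p is 0.0625, so no receptor could pass; values ranged over 1.31 to 1.90 for Cxcr2, 0.57 to 0.70 for Cxcr4, 0.99 to 1.48 for Ccr1, 0.69 to 1.01 for C5ar1, 0.81 to 1.33 for Ptafr, -1.51 to -1.28 for Ltb4r1, -0.75 to -0.49 for Fpr2 and -0.0207 to 0.56 for Fpr1, which was below 0 without bone marrow of run 1. Blood minus bone marrow of log2 Cxcr2 to Cxcr4 ranged from -0.42 (without bone marrow of run 1) to 1.39.

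In the inflammation library, 1.83%, 4.20% and 0.655% of genes were 2-fold higher in arthritic blood with thinned cells, TMM and a limit of 100 UMIs, and 3.66% and 2.99% lower with TMM and that limit. TMM gave 18.4% higher and 9.47% lower in the joint, 20.7% and 23.8% in the peritoneum, and 21.6% and 23.0% in the lung. In thinned cells Cxcr2 to Cxcr4 was 0.661 in the joint and 3.89 in the peritoneum. Fpr1 to Fpr2 was 0.807 in the joint, 0.820 in the peritoneum and 0.848 in the lung. Ltb4r1 to Ptafr was 0.263 in arthritic blood and 0.134 in the joint, and Ccr1 to Cxcr2 0.383 in arthritic blood. Without other-lineage cells, Cxcr2 to Cxcr4 was 0.661 in the joint and 3.47 in the lung, Fpr1 to Fpr2 0.855 in the lung, and Ltb4r1 to Ptafr 0.136 in the joint and 0.0460 in the peritoneum. Ccr1 to Cxcr2 was then 0.438 in arthritic blood, 1.14 in the joint, 1.28 in the peritoneum and 1.55 in the lung, and Ccrl2 to Cxcr2 0.526 in the joint and 0.272 in the lung. The cause of these shifts was not tested. The planned lineage filter was not run for healthy tissues, since it left 1 cell of blood of run 2. Ccrl2 and C3ar1 had few UMIs in healthy cells, and the part of depth in this was not tested. The inflamed conditions have no replicate.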

Other observations

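Cells carrying both Cxcr2 and Cxcr4 were counted and set beside the product of the 2 shares. In cells of the inflammation library thinned to 1000 UMIs, both were found in 50.8% of cells of healthy blood (product 50.6%), 34.1% of arthritic blood (35.0%), 47.7% of the joint (49.3%), 11.3% of the peritoneum (13.5%) and 22.0% of the lung (22.8%). Cells with a Cxcr4 UMI and none of Cxcr2 made up 27.1% of the joint and 6.29% to 10.2% of the other conditions. In healthy neutrophils thinned to 500 UMIs, both were found in 6.48% and 7.43% of blood (product 6.05% and 7.71%), 0.829% and 1.14% of the marrow (1.27% and 1.30%) and 2.20% and 4.93% of spleen (1.74% and 5.30%). The inflamed shares come from 1 pool per condition and none of these differences was tested.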
